A study of Mus musculus with 12 samples.

Results

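The genes described here are 10 inhibitory and paired immune receptors of myeloid and mast cells together with *Fgl2*, out of 24809 genes with a symbol in the count table of mouse female germline stem cells (FGSCs). They are the CD200 receptors *Cd200r1*, *Cd200r3* and *Cd200r4*, the leukocyte immunoglobulin-like receptors *Lilrb4a* and *Pirb*, the CD300 receptors *Cd300a* and *Cd300lf*, *Milr1* (allergin), and the secreted protein *Fgl2* with one of its receptors, *Fcgr2b*. The genes were chosen by function and by their measured levels and changes in these same libraries, so their levels and changes are given as a description, with no test of their own. They are listed with 25 RefSeq transcripts. RNA-seq was performed on 12 libraries in 4 groups of 3. By the sample records all groups were FGSCs of strain C57BL/6 at over 20 passages. The study gives a lower number, counted in generations, for its knockout and overexpressing cells. The cells were grown on inactivated STO cells, a mouse embryonic fibroblast line that serves as a feeder layer. The knockout group (KO) carried a CRISPR/Cas9 knockout of *Stella*, listed as *Dppa3*, and was 1 randomly selected clone, so the knockout and the clone cannot be told apart. KO-con was the control of the knockout, which the labels do not describe further. The overexpression group (Over) carried *Stella* on a lentivirus and Over-con the empty lentiviral vector. The guide RNAs of the knockout were also delivered by lentivirus. The sources do not say whether the libraries of a group came from separate cultures, so the spread between them may be technical.

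Inhibitory receptors of this kind carry tyrosine-based motifs in their cytoplasmic tails and recruit phosphatases or adaptors that damp activating signals in myeloid cells and mast cells. Several have paired activating relatives, which lack those motifs and signal through adaptors with an activation motif such as *Tyrobp* (DAP12) or *Fcer1g* (the common Fc receptor gamma chain). *Cd200r1* is the inhibitory receptor for CD200, *Cd200r3* and *Cd200r4* are activating relatives encoded near it, and *Fcgr2b* is the inhibitory receptor for the Fc part of IgG. *Fgl2* encodes a protein of the fibrinogen family that exists as a membrane-bound prothrombinase and as a secreted form that binds *Fcgr2b*.

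Between 5611846 and 12866545 reads were counted per library, with a median of 10221419. *Stella* itself had 0 counts in the 9 libraries outside Over and 347, 371 and 285 counts in Over, so the counts check the label of Over and leave that of KO unchecked. Of 13 germ cell markers, *Ddx4* and *Tfap2c* had 0 counts in every library and *Dazl* and *Pou5f1* at most 1, each with several transcripts. Among markers with 1 listed transcript, *Stra8* and *Bcl6b* had at most 1 count and *Mael* at most 2. *Sycp3* had between 10 and 24, *Prdm1* between 2 and 21 and *Ifitm3* between 667 and 1711. Of 6 leukocyte markers, *Laptm5*, *Cd53*, *Spi1* and *Ptprc* were counted in every library, with at least 298 counts each. *Cd52* had between 0 and 15 counts, and each transcript of *Coro1a* at most 32. Genes with 1 listed transcript held 95.7% of all counts, and 66.7% of the transcripts of genes with 2 or more had 0 counts in all libraries, against 25.1% for genes with 1. A count near 0 for a gene with several transcripts therefore cannot be read as an absent gene. The study reported *Stella*, *Mvh* (*Ddx4*), *Oct4* (*Pou5f1*) and *Dazl* in its FGSCs by RT-PCR, a measure unlike these counts. Why the counts differ from that report was not tested.

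*Fgl2*, *Cd200r1* and *Cd200r4* have 1 listed transcript each and the other 7 genes have 2 or more. A filter on low counts kept 4 of the 10 genes in every comparison, *Fgl2*, *Fcgr2b*, *Cd200r1* and *Cd200r4*. The other 6 reached no more than 11 counts in any library and are described by their counts.

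Of the genes, 8 have an entry in the RefSeq promoter table (GRCm38.p6), and *Cd200r1* and *Lilrb4a* have none. The 250 bases before the start of *Fgl2* are shown because this gene differed most in KO. They lie at chr5:21372423-21372672 on the plus strand, and capitals mark matches to the motifs searched.

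Fgl2: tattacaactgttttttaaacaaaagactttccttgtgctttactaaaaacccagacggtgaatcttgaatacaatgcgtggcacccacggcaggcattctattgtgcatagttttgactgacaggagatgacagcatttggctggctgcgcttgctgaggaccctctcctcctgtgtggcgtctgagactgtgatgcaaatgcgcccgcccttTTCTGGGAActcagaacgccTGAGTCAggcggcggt

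The motifs searched on both strands numbered 6. The GATA motif was read as AGATAA and that of ETS factors as AGGAAGT. The AP-1 motif was read as TGANTCA and the STAT motif as TTCNNNGAA, with N for any base. The E-box of the mast cell factor MITF was read as CACATG and the TATA box as TATAAA. The *Fgl2* window held the AP-1 motif, as TGAGTCA 16 to 10 bases before the start, and the STAT motif, as TTCTGGGAA 36 to 28 bases before it. These motifs matched in 6.75% and 7.02% of 32851 promoter windows of the same length, from which the windows of a chromosome were left out. A match is a description of the letters only.

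The windows of *Cd200r3* and *Cd200r4*, at chr16:44943428-44943677 and chr16:44820478-44820727, are both on the plus strand. They are shown because they belong to relatives on the same chromosome, with *Cd200r2* between them. *Cd200r4* had at least 1431 counts in every library and *Cd200r3* had 5 counts in all. *Cd200r3* has 4 listed transcripts, so its counts do not show a lower level. Capitals mark the 32 bases that both windows hold in 1 run, which begin 124 bases before the start of *Cd200r3* and 50 bases before that of *Cd200r4*.

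Cd200r3: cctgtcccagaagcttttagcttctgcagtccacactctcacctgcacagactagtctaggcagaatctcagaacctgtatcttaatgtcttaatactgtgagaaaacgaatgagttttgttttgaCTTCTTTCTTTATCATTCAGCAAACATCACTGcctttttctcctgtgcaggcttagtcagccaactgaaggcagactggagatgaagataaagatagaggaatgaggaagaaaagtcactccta
Cd200r4: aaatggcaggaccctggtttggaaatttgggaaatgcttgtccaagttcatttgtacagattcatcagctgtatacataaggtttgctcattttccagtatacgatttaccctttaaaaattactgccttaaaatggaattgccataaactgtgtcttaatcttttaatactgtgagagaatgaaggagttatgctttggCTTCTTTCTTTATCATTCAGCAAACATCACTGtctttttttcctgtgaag

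In a local alignment, 93 of 107 aligned bases of the 2 windows were identical (86.9%). The *Cd200r3* window held the GATA motif 39 to 34 bases before the start, a motif found in 9.99% of the same 32851 windows. The *Cd200r4* window held none of the 6 motifs.

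*Fgl2* (NM_008013; chromosome 5 of mm9 from 20878460 to 20884192) was lower in KO than in any other group. Levels are in CPM, the reads of a library scaled to the same size in each with TMM factors over all 12. The KO-con libraries were at 781, 734 and 738 CPM and the KO libraries at 251, 201 and 255 CPM. The Over-con libraries were at 461, 456 and 502 CPM and the Over libraries at 501, 476 and 462 CPM. All KO libraries lay below all others and all KO-con libraries above all others, whereas Over and Over-con overlapped. The group means were 751 ± 26.2 CPM in KO-con, 236 ± 29.9 in KO, 473 ± 25.1 in Over-con and 480 ± 19.8 in Over (SD, n = 3). *Fgl2* was thus 3.17-fold lower in KO than in KO-con, which is -1.67 on the log2 scale (standard error 0.09). In Over its log2 fold change was 0.03 (standard error 0.06). No stretch of 30 bases of its transcript occurs in a transcript of another gene.

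The control groups differed from each other in *Fgl2*, by 0.67 on the log2 scale (standard error 0.07), with KO-con above Over-con. Set against Over-con, KO was still lower, by -1.0 on the log2 scale. Set against KO-con, Over was lower, by -0.64, where against its own control it had 0.03.

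*Fcgr2b* (chromosome 1 from 172890689 to 172906678, minus strand), the receptor of secreted *Fgl2*, had all of its counts on NM_001077189, with 0 on its other transcript in every library. The values given for *Fcgr2b* are those of this transcript, and reads shared by both transcripts may be missing from them. The KO-con libraries were at 9.95, 14.5 and 14.3 CPM and the KO libraries at 20, 17.5 and 15.5 CPM. The Over-con libraries were at 24.6, 19.4 and 15.9 CPM and the Over libraries at 13.6, 15.6 and 14.1 CPM. KO lay above KO-con and Over below Over-con without overlap, while KO overlapped Over-con and Over, and KO-con overlapped Over. The log2 fold change was 0.45 in KO (standard error 0.16) and -0.46 in Over (standard error 0.15), and neither had an adjusted p under 0.05. Without KO-con replicate 1 the value in KO was 0.29, and without Over-con replicate 1 that in Over was -0.26. KO-con lay below Over-con by -0.62 (standard error 0.17), further than either treated group from its own control. Against the other control both directions turned, to -0.18 in KO and 0.17 in Over. *Fcgr2b* shares 15.1% of its stretches of 30 bases with *Fcgr3*, itself at no more than 3 counts per library, so some reads of one may have been counted on the other.

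*Cd200r1* (NM_021325; chromosome 16 from 44765849 to 44795091), the inhibitory CD200 receptor, took 4 separate levels. The KO-con libraries were at 424, 383 and 369 CPM and the KO libraries at 289, 280 and 310 CPM. The Over-con libraries were at 152, 152 and 140 CPM and the Over libraries at 159, 163 and 179 CPM. No pair of groups overlapped, and the order from high to low was KO-con, KO, Over and Over-con. The means were 392 ± 28.7, 293 ± 15.3, 167 ± 10.5 and 148 ± 6.87 CPM in that order (SD, n = 3). The log2 fold change was -0.41 in KO (standard error 0.07) and 0.18 in Over (standard error 0.07).

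For *Cd200r1* the controls lay further apart than either treated group from its own control. KO-con was 2.66-fold above Over-con, a log2 difference of 1.41 (standard error 0.08). With Over-con in place of KO-con, the difference of KO turned from -0.41 to 0.99, and with KO-con in place of Over-con that of Over turned from 0.18 to -1.23. The direction of *Cd200r1* in KO and in Over thus held against 1 control group each and was the opposite against the other.

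*Cd200r4* (NM_207244; chromosome 16 from 44820841 to 44839247), an activating relative, was at 332, 324 and 336 CPM in KO-con and at 338, 286 and 343 CPM in KO. It was at 291, 252 and 247 CPM in Over-con and at 252, 232 and 250 CPM in Over. KO-con lay above Over-con and Over, and each treated group overlapped its own control. The log2 fold change was -0.03 in KO (standard error 0.08) and -0.10 in Over (standard error 0.07), and KO-con exceeded Over-con by 0.33 (standard error 0.07). Of its stretches of 30 bases 11.6% occur in other genes, most of them in *Cd200r2*, and of those of *Cd200r1* 6.6%.

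**Figure D1:**
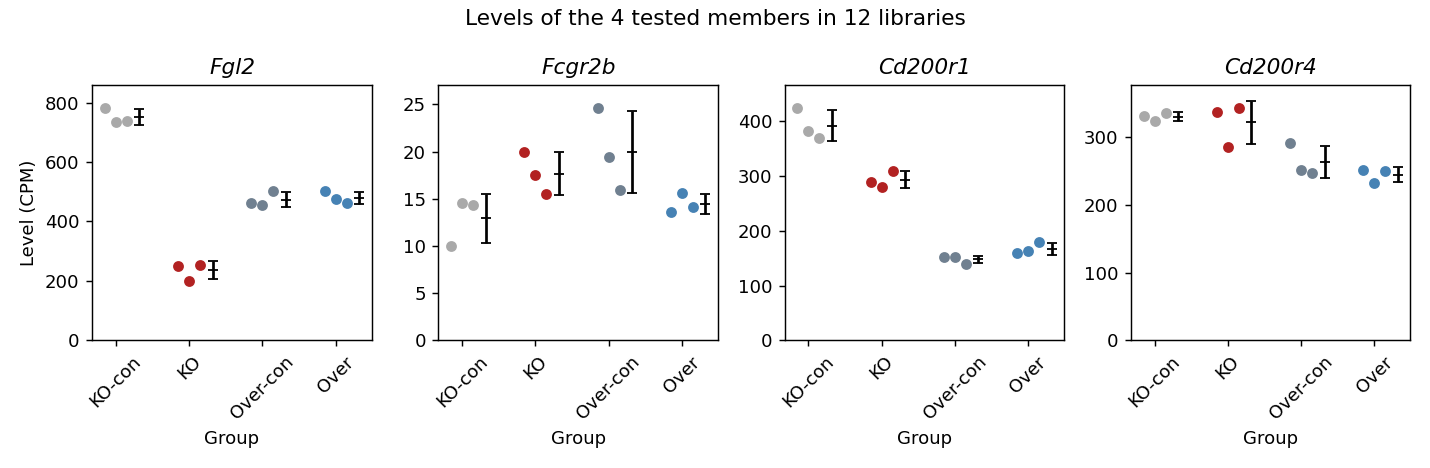
CPM (vertical axes, from 0) of Fgl2, Fcgr2b, Cd200r1 and Cd200r4 by group (horizontal axes); points are libraries and bars the mean ± SD of 3. The KO libraries of Fgl2 lie between 201 and 255 CPM, below all others, and Cd200r1 takes 4 levels that do not overlap.

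In KO, 2 of the 4 genes kept by the filter, *Fgl2* and *Cd200r1*, had an adjusted p under 0.05, both lower, where 11.8% of the 9457 transcripts tested did. *Fgl2* alone also had an absolute log2 fold change over 1, the rule by which the study calls a differentially expressed gene (DEG), as 1.70% of transcripts did. KO and KO-con did not overlap for 3 of the 4, where 30.5% of transcripts did not. In Over, 0 of the 4 had an adjusted p under 0.05 in edgeR, DESeq2 or limma-voom, where 1.65% of 9401 transcripts did in edgeR, and *Cd200r1* and *Fcgr2b* had an unadjusted p under 0.05. Over and Over-con did not overlap for these 2 genes, where 19.3% of transcripts did not, and DEGs made up 0.170% of transcripts and none of the 4. Between KO-con and Over-con all 4 had an adjusted p under 0.05, where 16.3% of 9321 transcripts did. All 4 also had groups that did not overlap, where 32.1% of transcripts did not, and *Cd200r1* alone passed the DEG rule, as 2.16% did. Since these contrasts chose the genes, nothing is read from the shares.

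The change in KO minus the change in Over, fitted over all 12 libraries, was -1.69 for *Fgl2* (standard error 0.11), -0.60 for *Cd200r1* (0.10), 0.91 for *Fcgr2b* (0.23) and 0.07 for *Cd200r4* (0.11) on the log2 scale. The first 3 of these had an adjusted p under 0.05, where 8.64% of 9903 transcripts did, and *Fgl2* also exceeded an absolute value of 1, as 1.90% did. The *Fcgr2b* value lost its call without KO-con replicate 1 or Over-con replicate 1, at 0.75 and 0.71.

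**Figure D2:**
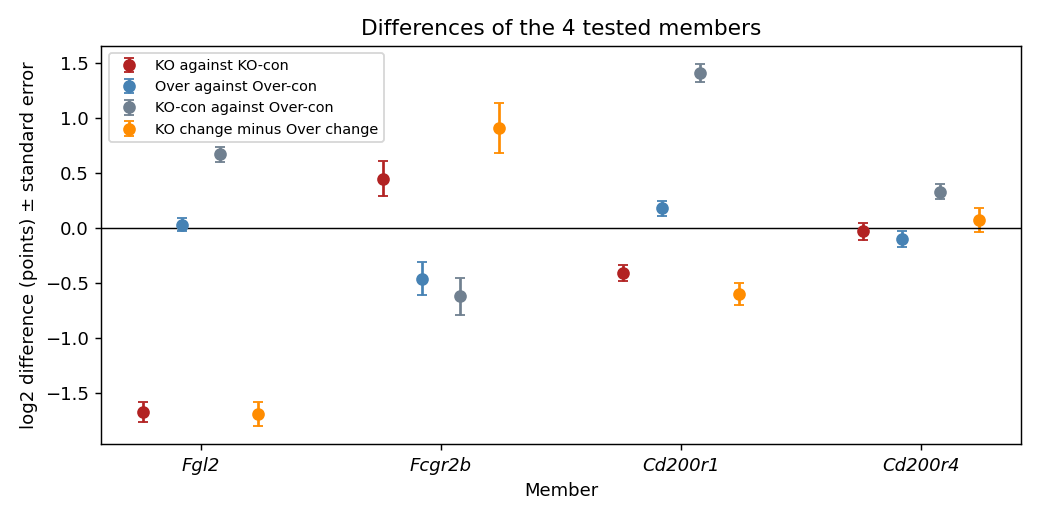
log2 differences ± standard error (vertical axis) of the 4 genes in 4 comparisons (colours). Fgl2 stands at -1.67 in KO and 0.03 in Over, and Cd200r1 at -0.41 in KO and 1.41 between the control groups.

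Levels can be compared between genes only per length. Per kilobase of transcript (3788 bases for *Fgl2*, 1892 for *Cd200r1* and 1684 for *Cd200r4*), KO-con had 198 ± 6.91, 207 ± 15.2 and 196 ± 3.65 CPM per kilobase, which overlapped (SD, n = 3). In KO the values were 62.2 ± 7.91, 155 ± 8.08 and 191 ± 18.7, with *Fgl2* lowest. In Over-con they were 125 ± 6.63, 78.2 ± 3.63 and 157 ± 14.2, with *Cd200r1* lowest, and in Over 127 ± 5.22, 88.2 ± 5.57 and 145 ± 6.69. The activating relative *Cd200r2*, with 1750 bases, was at 1.45 ± 0.211 in KO-con and 2.14 ± 0.48 in KO. *Fcer1g*, the adaptor chain of activating Fc receptors, with 674 bases, was at 156 ± 11.3 in KO-con and 150 ± 8.68 in KO.

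**Figure D3:**
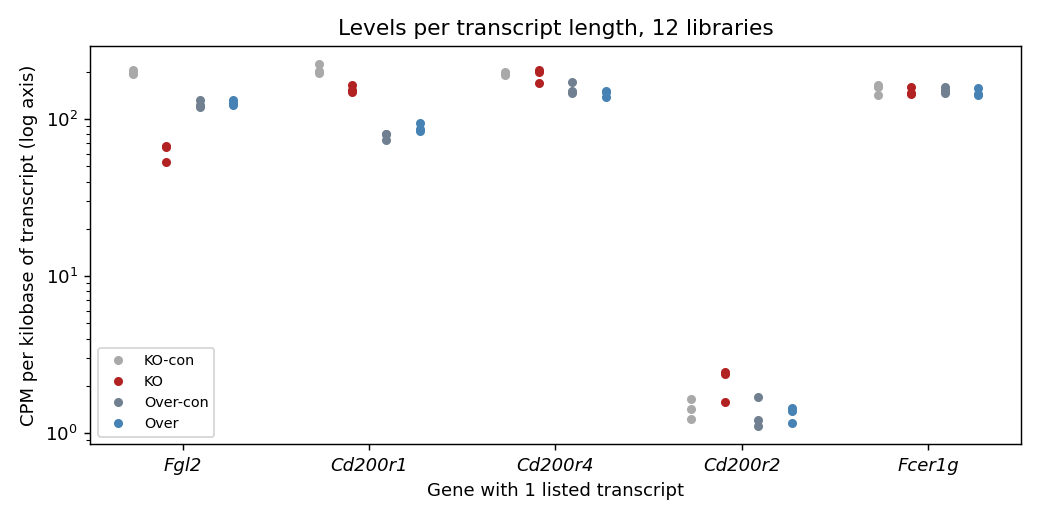
CPM per kilobase of transcript (vertical axis, log scale) of 5 genes with 1 listed transcript in each library, coloured by group. Fgl2, Cd200r1 and Cd200r4 lie between 192 and 224 in KO-con, and Cd200r2 between 1.11 and 2.44 over all libraries.

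*Cd200r3*, the other activating relative (chromosome 16 from 44943791 to 44981493), had 3 counts on NM_029018 and 2 on NM_001128132 over all libraries, and 0 on its other transcripts. *Cd300a*, an inhibitory receptor for phospholipids on dying cells, had 5 counts, all on NM_001359812. *Cd300lf*, another lipid-binding receptor of the family, had 6 counts on NM_001347648 and 59 on NM_001169153, the latter at 5, 10 and 10 in KO-con, 4, 5 and 6 in KO, 4, 4 and 2 in Over-con and 2, 2 and 5 in Over. *Milr1*, an inhibitory receptor of mast cells, had all 64 counts on the noncoding transcript NR_073165, with 3, 9 and 10 in KO-con, 9, 9 and 4 in KO, 4, 2 and 5 in Over-con and 1, 3 and 5 in Over. *Lilrb4a* and *Pirb*, which bind integrin or fibronectin and MHC class I ligands, had 0 counts in all libraries. A count of 0 allows up to 3 counts, which is between 0.233 and 0.535 CPM depending on the library, and covers counting error only. *Lilrb4a* shares 44.5% of its stretches of 30 bases with *Gp49a*, and *Pirb* 42% with other genes, so reads from those stretches have no single origin.

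The transcripts most like each gene were found by Pearson's r over the log2 CPM of all 12 libraries, among 6720 transcripts with a mean of at least 5 CPM. These r describe libraries that fall into 4 groups. For *Fgl2* they were *Cdh17* (0.966), *Trim71* (0.965), *Kcnk6* (0.952), *Myo16* (0.945) and *Ercc6* (0.935). *Trim71* was at a mean of 18.3 CPM in KO-con, 2.85 in KO, 9.62 in Over-con and 8.01 in Over, so it too was highest in KO-con and lowest in KO. *Cd200r1* was most like *Creb5* (0.989), *Cd200r4* most like *Fnip2* (0.957) and *Fcgr2b* most like *Plscr4* (0.906). Between the genes themselves r was 0.867 for *Cd200r1* and *Cd200r4*, 0.110 for *Fgl2* and *Cd200r1* and -0.509 for *Fgl2* and *Fcgr2b*.

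Of 18 paired activating receptors 5 were tested, and 2 rose in KO, where 11.8% of 9457 transcripts passed in either direction. The median log2 fold change of the 5 in KO was 0.59 against 0.01 over all transcripts. *Cd300ld*, an activating relative of *Cd300a* and *Cd300lf*, rose to 5.99 ± 0.732 from 2.21 ± 0.43 CPM (SD, n = 3), by 1.43 on the log2 scale (standard error 0.24, adjusted p = 0.000878 in edgeR). *Fcgr1*, the high-affinity IgG receptor and activating counterpart of *Fcgr2b*, rose by 0.38 (standard error 0.08, adjusted p = 0.00333) to 205 ± 15.4 from 158 ± 7.69 CPM. In Over 0 of the 5 passed in edgeR, DESeq2 or limma-voom and 1 had an unadjusted p under 0.05, and *Cd300ld* had -0.72 (adjusted p = 0.155). The change in KO exceeded that in Over for both, by 2.16 for *Cd300ld* (adjusted p = 0.000217) and 0.42 for *Fcgr1* (adjusted p = 0.009). Against Over-con neither was called in KO, with log2 fold changes of 0.05 and 0.10. Of the stretches of 30 bases of *Cd300lf*, 7.36% also occur in *Cd300ld*.

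Of 4 activation adaptors 2 were tested in KO. *Tyrobp*, the adaptor of activating CD200 receptors, averaged 11 ± 3.33 CPM in KO against 14.7 ± 1.24 in KO-con (log2 fold change -0.39, adjusted p = 0.191), and *Fcer1g* had -0.05 (adjusted p = 0.769). Neither passed in DESeq2 or limma-voom, and 1 had an unadjusted p under 0.05. Among 12 inhibitory effectors, 8 transcripts of 7 genes were tested in KO and 0 passed in edgeR, DESeq2 or limma-voom, with a median of 0.07 and 2 at an unadjusted p under 0.05. The phosphatase *Ptpn6* (SHP-1) averaged 3.47 ± 0.442 CPM in KO against 2.2 ± 0.988 in KO-con (log2 fold change 0.63, adjusted p = 0.222), and *Inpp5d* (SHIP-1), the main effector of *Fcgr2b*, had 0 counts on 4 transcripts. Of 15 proximal kinases and activating adaptors, 9 were tested and 3 rose in KO, with a median of 0.09, where 11.8% of all transcripts passed. *Lat*, a membrane scaffold of activating signals, rose by 0.72 (standard error 0.09, adjusted p = 4.78e-05) to 135 ± 7.75 from 82.5 ± 9.09 CPM, but had -0.04 against Over-con. *Btk* (0.31, adjusted p = 0.0188) and *Plcg1* (0.25, adjusted p = 0.0265), a kinase and a phospholipase downstream, were the others, and *Btk* was not called without KO-con replicate 1, KO-con replicate 3 or KO replicate 3, at 0.23 to 0.32, nor against Over-con, at 0.19 (adjusted p = 0.236).

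Of 9 ligands of the receptors 6 were tested, with a median of -0.03 in KO. *Cd200*, the ligand of *Cd200r1*, had 0 counts on 2 transcripts. *Angptl2*, a ligand of *Pirb*, rose by 0.59 (standard error 0.10, adjusted p = 0.000804) to 131 ± 16 from 87.4 ± 8.74 CPM. *H2-D1*, an MHC class I gene, fell by 0.32 (adjusted p = 0.0308) and was not called without KO-con replicate 3 or KO replicate 2, at -0.20 and -0.37. Of 15 genes of the fibrinogen family and coagulation reported here, 4 were tested and 0 passed in KO in edgeR, DESeq2 or limma-voom, with a median of 0.18 and 2 at an unadjusted p under 0.05. *Fgl1*, a relative of *Fgl2*, had at most 2 counts. In Over, 0 of the 6 ligands and 0 of the 4 genes of the fibrinogen and coagulation list passed in edgeR, DESeq2 or limma-voom, with 2 and 1 at an unadjusted p under 0.05.

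Among 24 other inhibitory receptors 5 were tested in KO. *Pdcd1* (PD-1) fell by 0.65 (standard error 0.10, adjusted p = 0.000617) to 69.1 ± 10.5 from 109 ± 9.45 CPM, and *Havcr2* (TIM-3) rose by 0.50 (standard error 0.10, adjusted p = 0.00287) to 73.4 ± 8.72 from 52.4 ± 3.4 CPM. Against Over-con *Havcr2* had -0.05. In Over 0 of the 6 tested passed in edgeR and 1 in DESeq2, and *Pdcd1* had a log2 fold change of -0.40 (adjusted p = 0.0592). *Cd244a* differed between the controls, at 2.15 ± 0.915 CPM in KO-con and 8.62 ± 0.323 in Over-con (log2 difference -1.95, standard error 0.25, adjusted p = 1.11e-05), as did *Havcr2*, by -0.53 (standard error 0.09, adjusted p = 0.000395).

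Between the controls, 3 of the 5 activating receptors tested, 1 of 3 adaptors and 2 of 9 proximal kinases and activating adaptors passed, all lower in KO-con. Over all transcripts 16.3% of 9321 passed, in either direction, and nothing is read from the counts of these short lists. KO-con was below Over-con in *Cd300ld*, by -1.37 on the log2 scale (standard error 0.27, adjusted p = 0.000968), in *Pira2* by -1.65 (standard error 0.50, adjusted p = 0.027) and in *Fcgr1* by -0.26 (standard error 0.07, adjusted p = 0.0172). The others had 0.10 for *Cd200r2* and -0.22 for *Fcgr4* (adjusted p = 0.874 and 0.782). *Tyrobp* averaged 14.7 ± 1.24 CPM in KO-con against 22.3 ± 6.62 in Over-con (log2 difference -0.63, adjusted p = 0.0117), while *Fcer1g* had 0.04 and *Hcst* -0.28 (adjusted p = 0.827 and 0.684). *Lat* was below Over-con by -0.75 (standard error 0.09, adjusted p = 8.37e-06) and *Lat2*, a related scaffold, by -0.61 (standard error 0.20, adjusted p = 0.0485). *F5*, a coagulation factor, was above it by 0.91 (standard error 0.30, adjusted p = 0.041). Leaving out 1 library ended the call for *Lat2* and *F5* in 5 of 6 fits, for *Pira2* in 4, for *Fcgr1* in 3 and for *Tyrobp* in 2, those without KO-con replicate 1 (-0.55) and without Over-con replicate 1 (-0.43). *F5* was not called in DESeq2 (adjusted p = 0.0585), in limma-voom (0.0809), with library totals (0.0636) or with the replicate block (0.057). *Lat2* was not called in DESeq2 (0.108), with the replicate block (0.0682), with no filter (0.055) or in 1 fit of all 12 libraries (0.0576). *Pira2* was not called in limma-voom (0.0619) and had no adjusted p in DESeq2, whose filter on mean counts left it out.

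**Figure D4:**
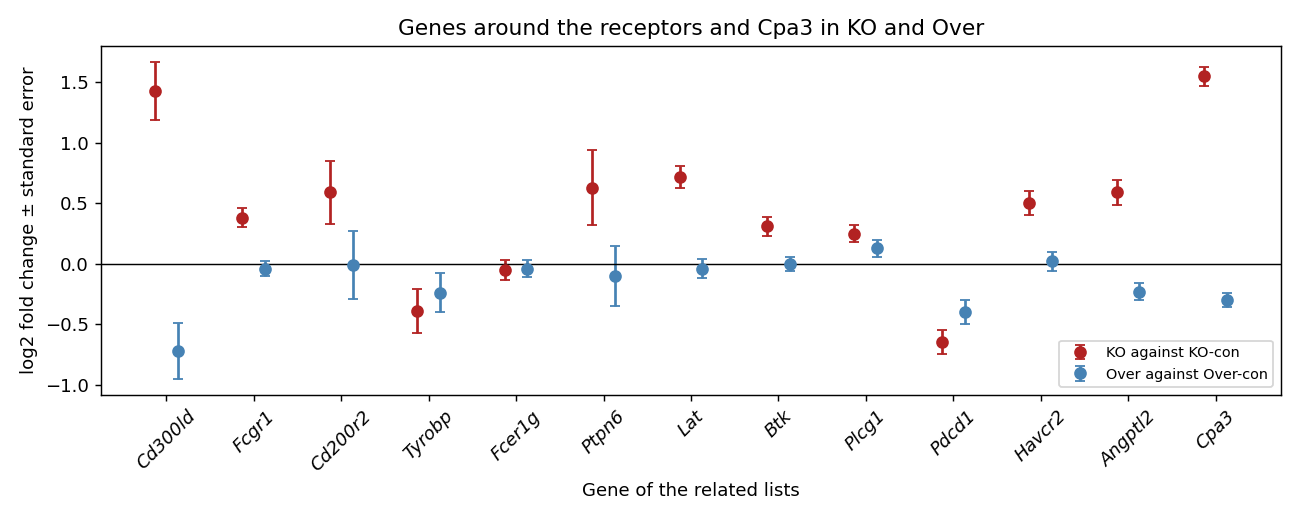
log2 fold change ± standard error (vertical axis) of 13 genes of the related lists in KO against KO-con and in Over against Over-con (colours). Cpa3 stands at 1.55 and Cd300ld at 1.43 in KO, and Fcer1g at -0.05.

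Markers of several cell types moved with the groups. Which cells these reads came from, and their part in the levels of the receptors, was not tested. In a bulk library, fewer cells of a type and less RNA per cell cannot be told apart. The 16 mast cell markers summed to between 377 and 436 CPM in KO-con, 1155 and 1239 in KO, 768 and 871 in Over-con and 655 and 674 in Over, the order opposite to that of *Fgl2* for KO-con and KO. Nearly all of this was *Cpa3*, a mast cell protease, which rose by 1.55 in KO (standard error 0.08, adjusted p = 2.62e-09) to 1172 ± 39.6 from 402 ± 33.4 CPM. Of 7 mast cell markers tested in KO 3 rose, where 11.8% of all transcripts passed in either direction. Besides *Cpa3* these were the protease *Cma1* (1.79, adjusted p = 0.00834) and *Hdc*, the histamine-forming enzyme (1.30, adjusted p = 0.0267). *Hdc* was not called in 4 of 6 fits without 1 library. In Over *Cpa3* fell by 0.30 (adjusted p = 0.0247), a call lost in 5 of 6 such fits. The markers *Fcer1a* and *Tpsab1*, with 1 listed transcript each, were at 0 in all libraries, and the entry of *Tpsab1* is a noncoding transcript. *Ms4a2* was also at 0 and *Kit* had at most 3 counts, both with several transcripts. *Mcpt1*, *Mcpt4*, *Tpsb2* and *Mrgprb2* had at most 3 counts. Counted in every library were *Mcpt8* (12 to 51 counts), *Mcpt2* (8 to 26) and 1 transcript of *Gata2* (4 to 71). The 6 leukocyte markers summed to between 1218 and 1325 CPM in KO-con, 1243 and 1454 in KO, 1373 and 1540 in Over-con and 1244 and 1315 in Over, and none was called in KO in edgeR, DESeq2 or limma-voom, with 1 at an unadjusted p under 0.05. The 14 macrophage and monocyte markers summed to between 42 and 60.7 CPM, with 5 at 0. Among these were *Adgre1* and *Itgam*, with several transcripts, and *C1qa* and *C1qb*, with 1 listed transcript each. Counted in every library were *Csf1r* (3 to 18 counts), *Cd14* (29 to 117) and *Mertk* (31 to 111), besides *Cd68*. The 8 neutrophil markers summed to at most 1.44 CPM and the 10 lymphocyte markers to at most 0.834. The 10 fibroblast and feeder markers summed to between 988 and 1169 CPM in KO-con, 868 and 1250 in KO, 1390 and 1577 in Over-con and 1234 and 1290 in Over. In KO 1 transcript each of *Dcn* (NM_001190451) and *Pdgfra* (NM_001347719) of this list fell, by 0.41 and 1.56 (adjusted p = 0.0224 and 0.00998), calls lost in 3 and 2 of 6 fits without 1 library. Their other tested transcripts had -0.48 and -0.41 (adjusted p = 0.27 and 0.543), and with counts summed per gene the values were -0.42 and -0.96 (adjusted p = 0.0165 and 0.0316). The germ cell marker *Prdm1* fell by 2.48 (adjusted p = 0.00147 in edgeR) to 0.313 ± 0.108 from 1.85 ± 0.138 CPM. Its counts were 2, 5 and 3 in KO and 19, 21 and 14 in KO-con, so the fold change rests on few reads. *Prdm1* also passed in limma-voom, and DESeq2, whose filter left it out, gave it no adjusted p. The macrophage marker *Cd68* rose by 0.48 in KO and 0.51 in Over (adjusted p = 0.0158 and 0.00645), lost in 3 and 1 of 6 fits without 1 library. In Over *Ifitm3* fell by 0.31 (adjusted p = 0.0396), lost in 5 of 6.

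Markers also differed between the control groups. KO-con was below Over-con in *Cpa3*, by -1.0 on the log2 scale (standard error 0.08, adjusted p = 1.33e-08), at 402 ± 33.4 against 807 ± 55.8 CPM. Of the feeder markers the collagen genes *Col3a1* and *Col1a1* were lower in KO-con by -0.99 and -0.47 (adjusted p = 3.58e-08 and 0.000326). *Col1a2* also passed, at 525 ± 50.7 CPM in KO-con against 682 ± 30.8 in Over-con. Of the leukocyte markers *Ptprc* (CD45) was lower by -0.54 (adjusted p = 0.000712) and *Cd53*, a tetraspanin, higher by 0.34 (adjusted p = 0.00491). *Laptm5* also passed, lower in KO-con at 804 ± 61.7 CPM against 1007 ± 45.6 in Over-con. Leaving out 1 library ended none of the calls for *Cpa3*, *Col3a1*, *Col1a1*, *Ptprc* and *Cd53*, and was not examined for *Col1a2* and *Laptm5*. *Prdm1* was higher in KO-con by 1.40 (adjusted p = 0.0175), with no adjusted p in DESeq2 and a call lost in 4 of 6 fits without 1 library, and *Ifitm3* was lower by -0.36 (adjusted p = 0.0059), lost in 1 of 6.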

How the data were processed

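RNA was extracted from FGSCs, stranded mRNA libraries were sequenced, and the authors aligned the reads to mm9 with HISAT2. The authors deposited read counts per RefSeq transcript, without normalization. The strand setting and the treatment of reads shared between transcripts are not given in the sources used here. Groups and replicate numbers came from the sample titles.

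The members and the related gene lists were chosen with earlier results of these data known. Symbols were matched for 41181 of 41388 transcripts (99.5%) through RefSeq (GRCm38.p6), which also gave the promoter windows. Positions and transcript lengths came from mm9 (GENCODE vM1). Each comparison used edgeR 4.0.16 (R 4.3.3) with TMM, filterByExpr, glmQLFit and glmQLFTest, and Benjamini-Hochberg adjustment over all transcripts tested. Standard errors were derived from the quasi-likelihood F. Alternatives used DESeq2 1.42.0, limma-voom (limma 3.58.1) and the settings in the closing section, and transcripts to which DESeq2 gave no adjusted p were not counted as called in it. Each pair of libraries within a group differed by more than counting noise (chi-square per degree of freedom 1.93 to 12.3). Only the edgeR fit of KO against KO-con was tested on simulated counts.

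All members were named, with each of their transcripts that had counts. From each related list and each comparison the text names DEGs, the 2 genes with the largest change among those past an adjusted p of 0.05, and *Cd200*, *Tyrobp*, *Fcer1g*, *Ptpn6* and *Inpp5d*. *Plcg1*, *Fgl1*, *Hcst*, *Fcgr4*, *Laptm5*, *Col1a2* and the markers given by their counts were named after their values were seen. A gene of the coagulation list is not reported here and was left out of its counts.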

Additional observations from a re-analysis of the deposited data

Results flagged for a closer look

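The change in KO differed from the change in Over, by the test of the difference itself in edgeR, for 3 of the receptors and ligands described and for 10 genes of the related lists. Over all transcripts, 8.64% of 9903 had an adjusted p under 0.05 in this test. The members and lists were chosen with earlier results of these data known, so nothing is read from these counts. The difference on the log2 scale, KO minus Over, was -1.69 for *Fgl2*, -0.60 for *Cd200r1* and 0.91 for *Fcgr2b*. It was 2.16 for *Cd300ld*, 1.86 for *Cpa3*, 0.82 for *Angptl2*, 0.76 for *Lat*, 0.42 for *Fcgr1* and 0.48 for *Havcr2*. It was also 1.77 for *Mcpt2*, -2.44 for *Prdm1*, -1.54 for *Pdgfra* and 0.47 for *Thy1*, which lost their call in 8 of 12 fits without 1 library. The *Pdgfra* value is that of NM_001347719. The other tested transcript of *Pdgfra*, NM_001083316, had -0.13 (adjusted p = 0.911), and counts summed per gene gave -0.81 (adjusted p = 0.148). *Havcr2* lost its call in 6 of 12 such fits. The controls of KO and Over differ from each other, so these differences also hold what separates the controls.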

How the results depend on the processing

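The count of members past an adjusted p of 0.05 was 2 in KO, 0 in Over, 4 between the controls and 3 for the difference of changes. With each library left out it lay between 2 and 3, 0 and 1, 3 and 4, and 2 and 3. With an absolute log2 fold change over 1 required as well, it was 1 in KO, 1 between the controls and 1 for the difference. With KO-con in place of Over-con it was 3 in Over, and with Over-con in place of KO-con it was 2 in KO, where *Cd200r1* was higher. Replicate numbers did not pair the samples: same-numbered KO and KO-con libraries deviated with correlations of -0.185 to -0.163, and with the replicate block the counts were 2, 0, 4 and 3.

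With the other control, *Cd200r1* turned to 0.99 in KO and -1.23 in Over, *Fcgr2b* to -0.18 and 0.17, *Cd200r4* to 0.29 in KO and *Fgl2* to -0.64 in Over. *Cpa3* and *Ifitm3* turned to 0.70 and 0.06 in Over, and *Lat* and *Havcr2* to -0.04 and -0.05 in KO. Values near 0 changed sign for *Cd200r4* in KO with library totals (0.01) or without KO replicate 2 (0.05), for its difference of changes without Over-con replicate 1 (-0.01), and for *Fgl2* in Over without Over replicate 1 (-0.0014). Over the fits without 1 library these values lay between -0.08 and 0.05, -0.01 and 0.14, and -0.0014 and 0.07. *Fcgr2b* was called in KO with no filter or without KO replicate 3 (0.53), and in Over without Over-con replicate 3 (-0.62). It was not called between the controls without KO-con replicate 1 (-0.46) or Over-con replicate 1 (-0.43). Of 276 member values under alternatives with the same controls, 265 kept direction and side of the threshold. Of 756 values for the called genes of the related lists that the naming rule covers, 647 did and 109 lost the call. *Plcg1*, *Laptm5* and *Col1a2* were called but fell outside that rule, and were not checked in this way.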
